A study of Mus musculus with 12 samples.

Results

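The comparison described here is the effect of an agent named PSTO on unstimulated RAW264.7 cells, a macrophage line derived from mouse. It sets the 3 libraries with the agent label PSTO against the 3 libraries with the agent label Control, which are 6 of the 12 RNA-seq libraries of the series. Libraries were assigned by these labels, and no measured value decided which library belongs to which group. PSTO cells received the agent at 20 uM, and control cells received vehicle, 30 minutes before the point at which other cells of the study were given LPS, and all were harvested after 6 h. The remaining 6 libraries are PSTO+LPS cells, given PSTO at 20 uM and then LPS at 500 ng/mL, and LPS cells, given vehicle and then LPS at 500 ng/mL, with 3 libraries each. The name PSTO is not expanded in the labels. A garlic extract is mentioned in the title of the series. All cells are of 1 line and carry no further alteration that the labels name. The replicates are called triplicates and are not said to be separate cultures, so p-values measure the spread between these libraries, which may be technical.

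Macrophages answer chemical stress and microbial products with overlapping sets of genes. Electrophiles and oxidants release the transcription factor NRF2 from its inhibitor KEAP1, and NRF2 then raises enzymes that make glutathione, regenerate thioredoxin and break down heme. Mitogen-activated protein kinases raise immediate early genes such as those of the AP-1 factors, along with the dual-specificity phosphatases that switch the kinases off again. Resting macrophages also keep a low tonic expression of antiviral genes through a small autocrine supply of type I interferon. These are background facts of the field and not results of these libraries.

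Promoter sequences of genes from antioxidant, interferon, replication and early response programs are shown, with that of Procr, because the results that follow turn on these genes. They were taken from RefSeq, build GRCm38.p6, and each is a stretch of 80 bases upstream of the gene's start, written 5′ to 3′ on the strand of the gene. Capitals mark the motif searched. For antioxidant genes the motif was TGACNNNGC, the core of the antioxidant response element that NRF2 binds, shown for Prdx1 (chr4:116685431-116685510, plus strand) and Gclm (chr3:122245388-122245467, plus strand).
Prdx1: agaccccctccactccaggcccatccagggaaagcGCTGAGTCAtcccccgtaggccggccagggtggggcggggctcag
Gclm: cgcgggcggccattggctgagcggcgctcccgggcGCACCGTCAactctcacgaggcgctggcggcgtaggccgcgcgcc
The match begins 133 bases before the start of Prdx1 and 134 bases before the start of Gclm, and in both it lies on the strand opposite to the one written. For interferon-stimulated genes the motif was GAAANNGAA, the repeat of the interferon-stimulated response element, shown for Ifit1 (chr19:34640745-34640824, plus strand), Ifit3 (chr19:34583339-34583418, plus strand) and Rsad2 (chr12:26456527-26456606, minus strand).
Ifit1: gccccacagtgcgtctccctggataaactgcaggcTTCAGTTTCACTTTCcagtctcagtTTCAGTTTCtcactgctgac
Ifit3: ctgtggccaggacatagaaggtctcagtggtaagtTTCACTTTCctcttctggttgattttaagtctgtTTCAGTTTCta
Rsad2: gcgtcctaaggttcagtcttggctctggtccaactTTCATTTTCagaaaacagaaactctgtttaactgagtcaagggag
The Ifit1 and Ifit3 promoters each hold 3 matches, of which 1 of Ifit3 lies outside the stretch shown, and the Rsad2 promoter holds 1. For DNA replication genes the motif was TTTCGCGC or TTTGGCGC, a site type of the E2F factors, shown for Mcm6 (chr1:128359772-128359851, minus strand), whose promoter holds 3 matches, 2 of which overlap in the stretch shown.
Mcm6: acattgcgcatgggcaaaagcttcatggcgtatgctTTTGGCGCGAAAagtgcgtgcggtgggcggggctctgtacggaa
Also searched were TGACTCA or TGAGTCA, which AP-1 binds, shown for Procr, a coagulation gene among the largest rises (chr2:155751027-155751106, plus strand), and TGACGTCA or TGACGCAA, which CREB and ATF proteins bind, shown for the early response genes Dusp1 (chr17:26508572-26508651, minus strand), Fosb (chr7:19310062-19310141, minus strand) and Dusp8 (chr7:142095348-142095427, minus strand).
Procr: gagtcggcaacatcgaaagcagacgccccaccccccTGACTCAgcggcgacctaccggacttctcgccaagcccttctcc
Dusp1: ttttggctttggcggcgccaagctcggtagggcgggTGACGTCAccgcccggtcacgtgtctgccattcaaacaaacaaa
Fosb: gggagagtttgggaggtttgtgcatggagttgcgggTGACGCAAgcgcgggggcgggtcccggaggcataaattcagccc
Dusp8: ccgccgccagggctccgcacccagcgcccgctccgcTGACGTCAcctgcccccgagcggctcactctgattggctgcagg
All motifs were searched on both strands, and the AP-1 letters can overlap the antioxidant element, as they do in Prdx1. A promoter, counted from 250 bases before to 50 bases after the start, was found for 9613 of the 14505 genes tested. The interferon motif was present in 14 of the 22 matched interferon-stimulated genes, or 63.6%, against 7.61% of all tested genes with a promoter. Its share was 17.3% among the 202 matched genes that fell at least 2-fold, 9.08% of all matched genes called lower and 6.18% of those called higher. The 2-fold falls are not separate from the interferon list, of which 20 members were called at least 2-fold lower, with or without a matched promoter. The E2F motif was present in 8 of 28 matched replication genes, or 28.6%, against 1.62% of all. The antioxidant core was present in 3 of 22 thioredoxin-group promoters (13.6%) and 2 of 13 glutathione-group promoters (15.4%), against 15.2% of all tested genes. The CREB and ATF motif was present in 6.37% of promoters of genes called higher, 2.8% of those called lower and 4.45% of all. Its share was 3.66% of the 246 matched genes that rose at least 2-fold and 1.49% of those that fell at least 2-fold, and 1 of 16 early factors held it. The AP-1 motif was present in 7.72% of the genes that rose at least 2-fold and 6.44% of those that fell at least 2-fold, against 3.87% of all, and in 0 of 16 early factors. Over all calls, the AP-1 share was 4.21% of genes called higher and 2.97% of those called lower. The promoters shown were picked because they hold a match. For the antioxidant core, none was present in Slc7a11, Txnrd1, Ptgr1, Nqo1, Gss or Akr1b8. For the interferon motif, none was present in Oasl2, Cmpk2 or Ifit2, and for the E2F motif none in Mcm2, Cdc6, Ung or Dut. Jun, Nr4a1, Nr4a2 and Nr4a3 held no CREB and ATF motif, and Jun, Fosl2 and Dusp8 held no AP-1 motif. A match says only that these letters are present in the window.

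The 6 libraries held 21847730, 22502284 and 23857202 reads in PSTO cells, against 26575919, 20652947 and 25338243 reads in control cells. Levels are given as CPM, which are counts per 1000000 reads after TMM scaling of library sizes, and they are not divided by gene length, so they are compared between libraries and not between genes. The first principal component of the 6 libraries held 45% of the variance and placed PSTO libraries between 31.1 and 35.8 and control libraries between -35.1 and -30.7. The second held 16.1% and spread the control libraries, with control 2 at 38.1 and control 3 at -26.9. Summed levels of 10 macrophage markers were 10448 to 10920 CPM in PSTO cells and 11211 to 11913 CPM in control cells, and no macrophage marker was at 0. Most defining markers of fibroblasts (7 of 8), epithelium (7 of 8) and erythroid cells (6 of 8) had 0 reads in all 6 libraries. The list of 8 T cell markers, with 2 at 0, summed to 33 to 36 CPM in PSTO cells and 34.1 to 39.8 CPM in control cells. The list of 8 B cell markers, with 3 at 0, summed to 0.352 to 0.377 CPM in PSTO cells and 0 to 0.0933 CPM in control cells. In a bulk sample, fewer cells of a kind and less RNA per cell cannot be told apart.

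Under TMM scaling, about as many genes were called higher as lower with PSTO, and most called changes were small. Of 14505 genes tested, 4440 were called at an adjusted p under 0.05 in edgeR's quasi-likelihood test, which is 30.6% of them. The 2148 genes called higher made up 14.8% and the 2292 called lower made up 15.8%. At least a 2-fold change was reached by 423 genes called higher (2.92%) and 294 called lower (2.03%). The median size of a called change was 0.43 on the log2 scale, and 2864 calls, or 64.5%, were under 1.5-fold. The median log2 fold change of all tested genes was 0, which TMM scaling tends to produce, so a shift common to most genes could not show. The split moved with the fit, to 2002 higher and 2445 lower with relative log expression factors. With DESeq2 it was 2119 and 2570, and with 1 library left out it was 1661 to 1716 and 2044 to 2240. The 3 PSTO values did not overlap the 3 control values for 6424 genes (44.3%), and 4324 genes (29.8%) were called and did not overlap.

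The balance of rises and falls differed with the level of the gene. Among 1845 genes at 100 CPM or more, 55.3% were called, with 559 higher and 462 lower and a median size of 0.29 (log2). Between 10 and 100 CPM, 39.9% of 6581 genes were called, with 1165 higher and 1462 lower. Between 1 and 10 CPM, 18.1% of 3280 genes were called, with 275 higher and 320 lower. Under 1 CPM, 7.04% of 2799 genes were called, with 149 higher and 48 lower, and a median size of 2.33. The filter on low counts used all 12 libraries, so such genes could enter on reads of LPS-treated or PSTO libraries alone. Of the 149, 23 had 0 reads in control cells and could only rise, so nothing is read from the balance under 1 CPM. The power to call a change falls with the level, so the larger sizes at low levels describe called genes only. Counts of called list members given below are to be read beside 14.8% higher and 15.8% lower among all genes. Lists of well expressed genes are to be read beside the larger shares called at their level.

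**Figure D1:**
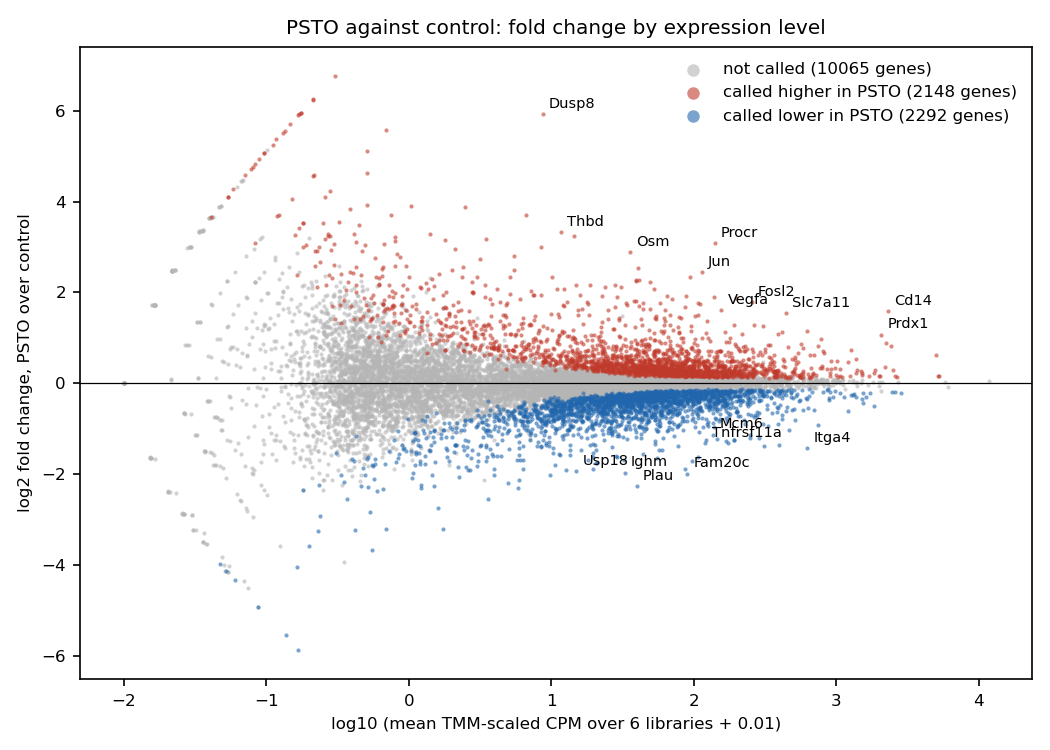
Each of 14505 points is a gene, placed by its mean level over the 6 libraries (log10 of TMM-scaled CPM + 0.01, horizontal) and its log2 fold change of PSTO over control (vertical). Red points (2148) were called higher, blue points (2292) were called lower and grey points were not called. Calls reach smaller fold changes as the level increases, and the labelled genes include Dusp8 at 5.92 and Plau at -2.26.

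The genes with the largest rises among those at 5 CPM or more included signalling brakes, endothelial-type anticoagulant receptors and cytoskeletal genes. Ptpn14, a tyrosine phosphatase that restrains the YAP coactivator, had 21.8, 27.1 and 29.7 CPM in PSTO cells, against 3.06, 2.27 and 2.94 CPM in control cells. Its log2 fold change was 3.24 ± 0.18 (SE, n = 3 each, edgeR adjusted p = 9.85e-11), and no PSTO value came near a control value. Map1b, which binds and stabilises microtubules, had 14.3, 14.4 and 16.1 CPM in PSTO cells, against 1.91, 2.11 and 1.55 CPM in control cells. Arid5a, an RNA-binding protein that stabilises inflammatory transcripts, had 74.9, 67.3 and 63.9 CPM in PSTO cells, against 13.6, 9.57 and 12.4 CPM in control cells. Both groups were tight beside the difference, a log2 fold change of 3.01 for Map1b and 2.53 for Arid5a. Further large rises were in Galnt3, which starts O-linked glycosylation (log2 fold change 2.74), in Phlda1 (2.5), in the ubiquitin ligase gene Mid1 (2.33) and in Slc17a6, a vesicular glutamate transporter known from neurons (2.33). Usp39, a splicing factor, was the least even of the 15, with 3.08, 10.9 and 14.9 CPM in PSTO cells, against 1.59, 1.4 and 1.16 CPM in control cells (2.8 ± 0.54, edgeR adjusted p = 0.000519).

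The largest falls included interferon-stimulated genes, the secreted kinase gene Fam20c and several genes of signalling and repair. Ptchd1, a membrane protein related to the Hedgehog receptor Patched, had 1.01, 1.66 and 3.16 CPM in PSTO cells, against 9.9, 8.85 and 10.3 CPM in control cells. Rasgrp3, which activates Ras in response to diacylglycerol, had 28.2, 39.1 and 43.4 CPM in PSTO cells, against 139, 127 and 145 CPM in control cells. Its log2 fold change was -1.89 ± 0.11 (SE, n = 3 each, edgeR adjusted p = 3.49e-10). Hdac9, a class IIa histone deacetylase, had 2.22, 1.99 and 2.38 CPM in PSTO cells, against 11.4, 6.3 and 11.4 CPM in control cells. Hpgd, which inactivates prostaglandins, had 1.95, 4.06 and 5.57 CPM in PSTO cells, against 14.9, 15.6 and 17.0 CPM in control cells. In each of these genes the groups stood apart, although PSTO 1 was the lowest library of all for Ptchd1, Rasgrp3 and Hpgd. Tgfbi, a matrix protein induced by TGF-beta (log2 fold change -1.88), Serpinb6b (-1.89) and Fgd2, an activator of Cdc42 (-1.8), were also among the 15.

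**Figure D2:**
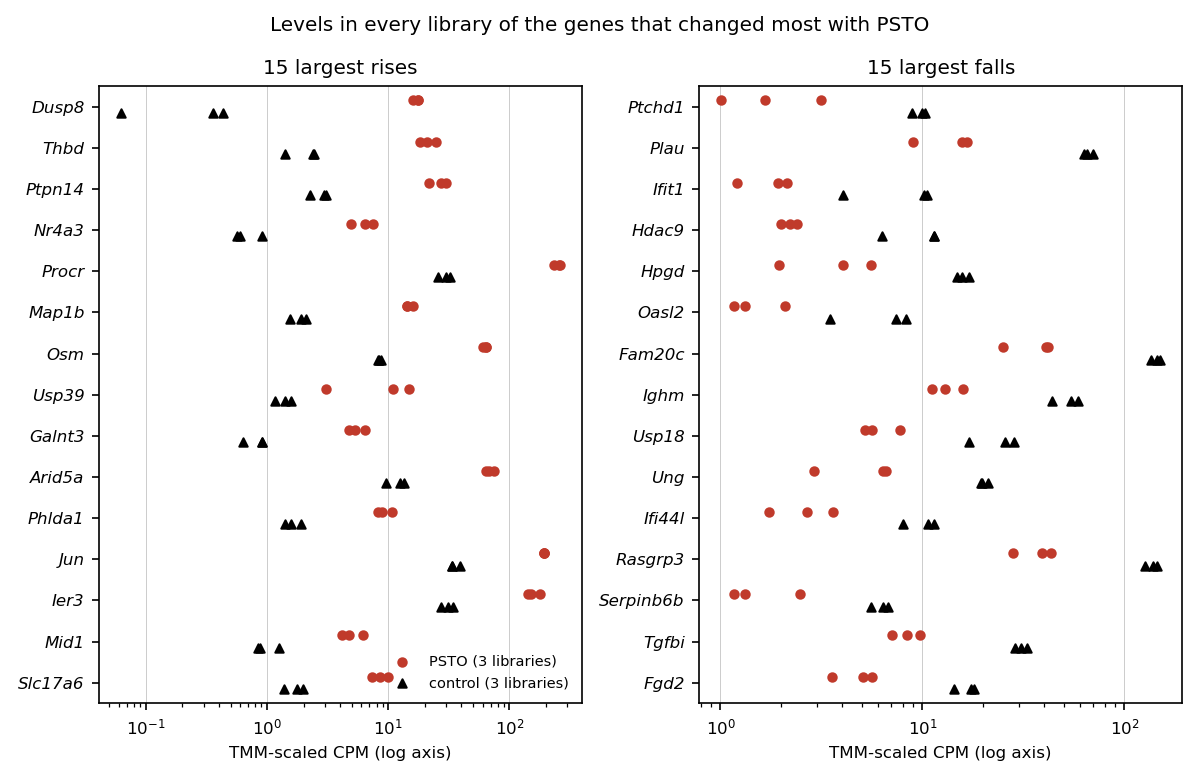
TMM-scaled CPM (horizontal, log axis) of the 15 largest rises (left) and 15 largest falls (right) in each of the 3 PSTO libraries (red circles, upper row of each gene) and 3 control libraries (black triangles, lower row). In all 30 genes the PSTO and control points do not overlap, as the rule for naming them required, and Usp39 shows the widest fold spread among PSTO libraries, 3.08 to 14.9 CPM.

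Early response transcription factors rose as a group, with 15 of 21 tested members called higher and 2 called lower, and a median log2 fold change of 0.95. The count of 15 was the same in every alternative fit and with any 1 of the 6 libraries left out. Jun, the core AP-1 subunit, had 193, 192 and 192 CPM in PSTO cells, against 38.7, 33.3 and 33.8 CPM in control cells. Fosl2, a Fos-type partner of Jun, had 411, 399 and 376 CPM in PSTO cells, against 109, 120 and 115 CPM in control cells. The PSTO libraries lay within a narrow band and far above control for both, with log2 fold changes of 2.45 for Jun and 1.79 for Fosl2. All 3 orphan receptors of the NR4A family rose, Nr4a3 by 3.17, Nr4a1 by 1.74 and Nr4a2 by 1.63. Nr4a1 had 29.9, 28.3 and 26.0 CPM in PSTO cells, against 8.53, 8.1 and 8.53 CPM in control cells. Fosb (2.17), Jund (2.08), Maff (1.45) and Srf (0.89) were also called higher. Fos, Egr1, Egr3 and Atf3 did not share this direction. Fos had 90.3, 87.8 and 88.0 CPM in PSTO cells, against 91.0, 85.0 and 92.8 CPM in control cells (log2 fold change -0.02 ± 0.07, edgeR adjusted p = 0.906). Egr1 was not called (-0.28 ± 0.12, edgeR adjusted p = 0.0949), but it was called lower without the filter on low counts, at -0.28, and without PSTO replicate 3, at -0.43. Atf3 (-0.51) and Egr3 (-1.02) were the 2 members called lower, and the call of Egr3 was lost without control 3 or PSTO 1. These 4 genes were named after their values were seen.

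In a list of phosphatases that switch off mitogen-activated protein kinases and of Sprouty-type brakes on Ras, 12 of 16 members were called higher and 1 lower, with a median of 0.65. Dusp8, which acts mainly on JNK and p38, had 17.6, 16.1 and 17.5 CPM in PSTO cells, against 0.0625, 0.359 and 0.43 CPM in control cells, where only 24 reads were counted over the 3 libraries. Dusp16, also directed at JNK, had 81.0, 81.7 and 79.6 CPM in PSTO cells, against 18.3, 16.6 and 16.8 CPM in control cells. Dusp1, the best known nuclear member, had 90.5, 90.2 and 89.6 CPM in PSTO cells, against 29.1, 24.6 and 25.6 CPM in control cells. In all 3 the PSTO libraries were nearly level with each other, and the groups were far apart. Dusp5, specific for nuclear ERK, had 102, 104 and 104 CPM in PSTO cells, against 27.2, 26.4 and 27.7 CPM in control cells (1.93 ± 0.07, edgeR adjusted p = 7.3e-13). Spred1, a brake on Ras, was the only member called lower, with 174, 190 and 192 CPM in PSTO cells, against 295, 284 and 311 CPM in control cells. Pde4b, which degrades cyclic AMP, is on no list but was among the 10 smallest p-values, with 86.3, 84.6 and 84.1 CPM in PSTO cells, against 18.2, 22.3 and 20.3 CPM in control cells. Kruppel-like factors showed less movement, with 3 of 10 higher (Klf7 by 1.5, Klf4 by 0.77, Klf13 by 0.44), and Klf16 lower at -0.61.

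Of 16 secreted growth factors tested, 6 were called higher and 3 lower. Vegfa, the main angiogenic factor, had 249, 233 and 225 CPM in PSTO cells, against 76.8, 82.7 and 71.5 CPM in control cells. Lif, a cytokine that signals through the gp130 receptor, had 10.9, 13.1 and 10.7 CPM in PSTO cells, against 2.97, 1.99 and 3.41 CPM in control cells. Osm, which signals through the same receptor, had 64.3, 60.7 and 63.5 CPM in PSTO cells, against 8.78, 8.38 and 8.27 CPM in control cells. Every PSTO value exceeded every control value in these 3 genes. The epidermal growth factor family ligands, named after their values were seen, were near the detection limit. Ereg had 0.234, 0.451 and 0.532 CPM in PSTO cells and 0 reads in all control libraries, and Hbegf had 1.09, 0.64 and 2.55 CPM in PSTO cells, against 0.125, 0.199 and 0.165 CPM in control cells. Igf1, a trophic factor of macrophages in tissue, moved the other way, with 32.6, 49.2 and 49.0 CPM in PSTO cells, against 87.8, 89.7 and 89.8 CPM in control cells (-1.03 ± 0.11, edgeR adjusted p = 8.34e-07). Socs3, the feedback inhibitor of gp130 signalling, had 31.8, 33.2 and 32.2 CPM in PSTO cells, against 14, 12.3 and 11.9 CPM in control cells, a log2 fold change of 1.34. Stat3, the factor downstream of that receptor, was called higher at 0.65.

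Genes that control fibrinolysis and coagulation were called in both directions. The protein C receptor gene Procr had 235, 256 and 260 CPM in PSTO cells, against 25.7, 29.9 and 32.6 CPM in control cells, and Thbd, its partner thrombomodulin, rose by 3.32. The urokinase gene Plau fell, with 8.98, 16.6 and 15.6 CPM in PSTO cells, against 65.1, 63.2 and 69.5 CPM in control cells. Its receptor gene Plaur rose, with 281, 266 and 263 CPM in PSTO cells, against 113, 106 and 113 CPM in control cells. Over the 17 genes of the list, 6 were called higher, 2 lower and 9 were not called, with a median of -0.04, so the large rises stood beside many genes with no call. Procr and Thbd are also known from endothelium. A list of endothelial markers summed to 7.16 to 11.3 CPM in PSTO cells and 4.48 to 6.1 CPM in control cells, with Emcn and Tie1 at 0 in all 6 libraries, and its part in the result was not tested.

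Among antioxidant genes, 9 of 17 glutathione genes were called higher and 0 lower (median 0.42), and 12 of 24 thioredoxin and quinone genes were called higher and 3 lower (median 0.28). With 1 library left out, the edgeR glutathione count was 6 to 8, with 6 without control 2 and 6 without control 3. Slc7a11, the cystine importer that feeds glutathione synthesis, had 599, 667 and 710 CPM in PSTO cells, against 212, 247 and 215 CPM in control cells. Gclm, the modifier subunit of the first enzyme of that pathway, had 834, 1066 and 1123 CPM in PSTO cells, against 605, 679 and 633 CPM in control cells. Ptgr1, which reduces unsaturated carbonyls, had 49.4, 54.7 and 53.4 CPM in PSTO cells, against 16.6, 16.1 and 14.6 CPM in control cells. The groups did not overlap, and PSTO 1 was the lowest PSTO library in all 3. Srxn1, which repairs overoxidised peroxiredoxins, had 746, 899 and 937 CPM in PSTO cells, against 380, 392 and 397 CPM in control cells. Prdx6 (1.09 ± 0.06) and Prdx1 (1.07 ± 0.04) rose about equally, while Txnrd1, the thioredoxin reductase of the cytosol, rose by 0.54 ± 0.06. The 3 members called lower, named after their values were seen, were the carbonyl reductase gene Cbr1 (-0.68), the quinone reductase gene Nqo2 (-0.64) and mitochondrial Sod2 (-0.2), whose call was lost without control 2 or PSTO 1. The gene of the regulator itself fell, with Nfe2l2, which encodes NRF2, at 123, 119 and 127 CPM in PSTO cells, against 167, 158 and 167 CPM in control cells. Keap1, its inhibitor, fell as well (-0.33 ± 0.08, edgeR adjusted p = 0.00307). These were the 2 members called lower in a list of NRF2 and its regulators. Of the 9 genes tested in that list 3 were called higher, and the median was 0.01.

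Heme and iron genes moved in both directions, with 9 of 16 called higher and 5 lower. Hmox1, which degrades heme, had 2481, 3367 and 3487 CPM in PSTO cells, against 1578, 1962 and 1737 CPM in control cells. Slc40a1, the iron exporter ferroportin, had 26.8, 42.4 and 44.0 CPM in PSTO cells, against 22, 23 and 23.5 CPM in control cells. PSTO 1 stood well below the other PSTO libraries in both genes and still above every control library. Ferritin heavy chain, Fth1, rose by 0.17, and Tfrc, the receptor for iron uptake, fell by 0.28 on the log2 scale. Steap3, an endosomal iron reductase, had 13.2, 18.4 and 16.1 CPM in PSTO cells, against 29.5, 30.0 and 33.1 CPM in control cells. Of 14 genes that supply NADPH, 5 were higher and 4 lower. Malic enzyme Me1 rose by 0.82 and G6pdx, the entry enzyme of the pentose phosphate pathway, by 0.49, while Rpia of the non-oxidative branch (-0.71), mitochondrial Idh2 (-0.53) and Nadk (-0.42) fell. Summed over the list of 24 thioredoxin and quinone genes, the level was 8711, 9434 and 9679 CPM in PSTO 1 to 3, against 5787, 5820 and 5959 CPM in control 1 to 3. PSTO 1 was thus the lowest PSTO library in this sum, and its share of mitochondrial reads was 1.77%, against 1.33% and 1.31% in the other PSTO libraries and 1.41% to 1.6% in control libraries. The part of that library's composition in these differences was not tested.

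**Figure D3:**
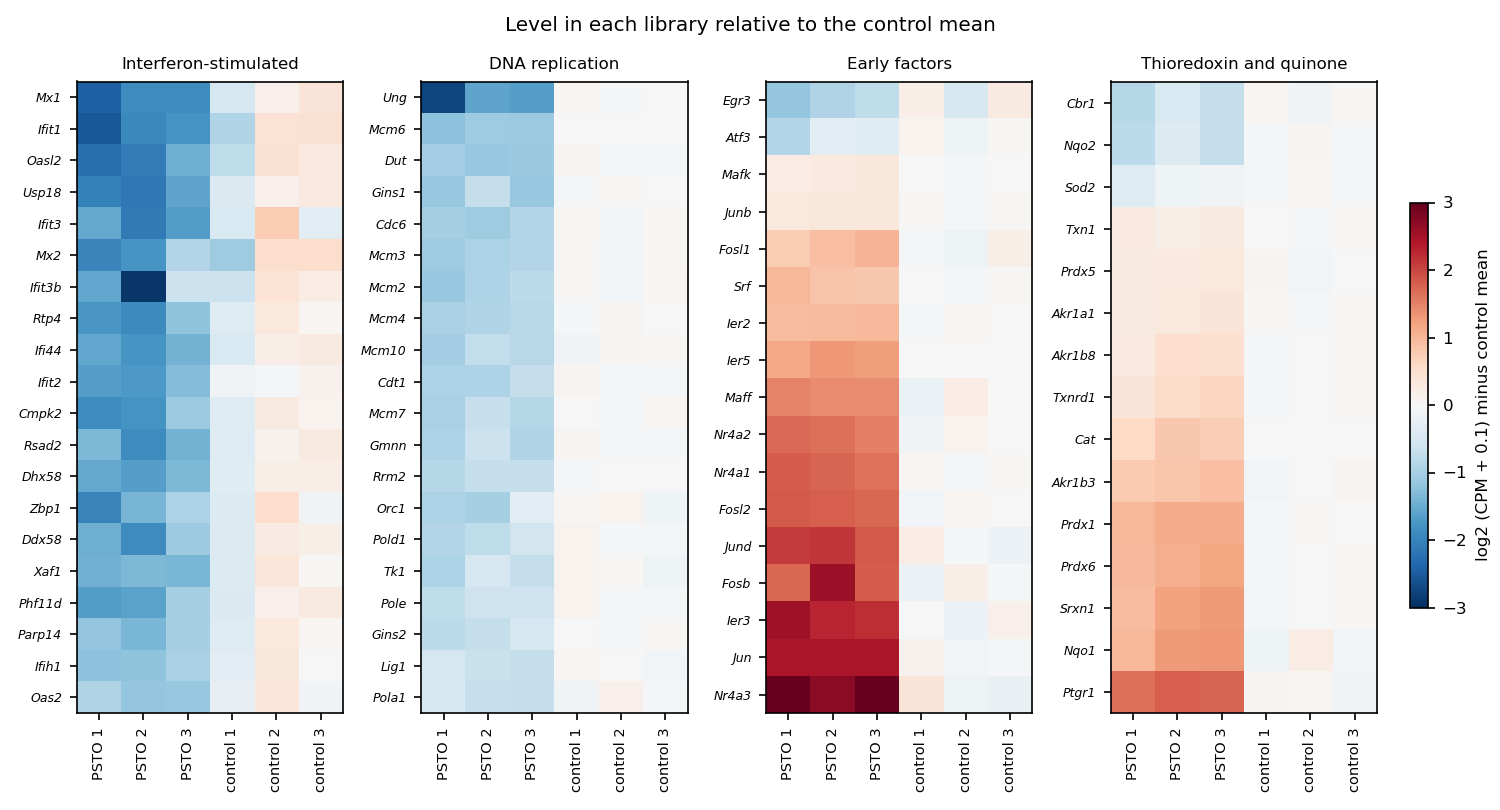
Each cell is the level of a gene in a library, as log2 of (CPM + 0.1) minus the mean of the 3 control libraries, for up to 20 called members of 4 gene lists, with PSTO libraries in the left 3 columns and control libraries in the right 3. The colour scale ends at -3 and 3. Interferon-stimulated and replication genes are blue in PSTO libraries and early factors are red, with Egr3 and Atf3 as exceptions, and control 1 is the bluest control column among interferon-stimulated genes.

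Of 24 heat shock genes, most but not all of them cytosolic, 12 were called higher and 3 lower (median 0.2). Of 27 endoplasmic reticulum genes 15 were higher and 3 lower (median 0.18). Hspa1b, an inducible HSP70, had 86.0, 79.0 and 67.7 CPM in PSTO cells, against 28.2, 29.3 and 28.0 CPM in control cells. Its near-identical copy Hspa1a was counted at 3.55, 4.25 and 3.3 CPM in PSTO cells, against 0.437, 0.239 and 0.727 CPM in control cells, and reads of the pair may be split between them. Hsp90aa1 rose by 0.72 ± 0.05 and Bag3, a partner of HSP70 in autophagy, by 0.62 ± 0.06. The 3 heat shock genes called lower, named after their values were seen, were the mitochondrial chaperonin genes Hspd1 (-0.19) and Hspe1 (-0.28) and the gene Fkbp4 (-0.28). Without control 2, 5 were called lower. Within the reticulum, the ubiquitin ligase gene Syvn1 rose by 0.64 and Herpud1 by 0.57, and Edem1, which targets glycoproteins for degradation, fell, with 202, 203 and 212 CPM in PSTO cells, against 341, 311 and 343 CPM in control cells. Of 33 proteasome genes, 13 were called higher and 0 lower, led by Psmd8 at 0.39. That count was 8 without control 1 or PSTO 1, 7 without control 2, 6 without PSTO 2 or PSTO 3 and 10 without control 3. Of 22 autophagy genes 12 were higher, led by Gabarapl1 (0.67) and Wipi2 (0.6), and only Tfeb, a regulator of lysosome genes, was lower (-0.71). The autophagy count was 7 without control 2 and 7 without PSTO 1.

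In the ATF4 branch of the integrated stress response, 14 of 25 genes rose and 6 fell (median 0.31). Ddit4, an inhibitor of mTORC1, rose the most, with 26.3, 24.4 and 22.8 CPM in PSTO cells, against 4.87, 6.1 and 5.55 CPM in control cells. The amino acid transporter gene Slc38a2 had 1026, 929 and 899 CPM in PSTO cells, against 519, 548 and 558 CPM in control cells. Sesn2, another brake on mTORC1, rose by 0.93 and Atf4 itself by 0.31. Asns, a standard ATF4 target, did not pass the test at 0.16 ± 0.07 (edgeR adjusted p = 0.0771). Among cytosolic aminoacyl-tRNA synthetases 3 of 19 were higher and 3 lower, shares close to the 14.8% and 15.8% of all genes, and 5 were lower without control 2.

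**Figure D4:**
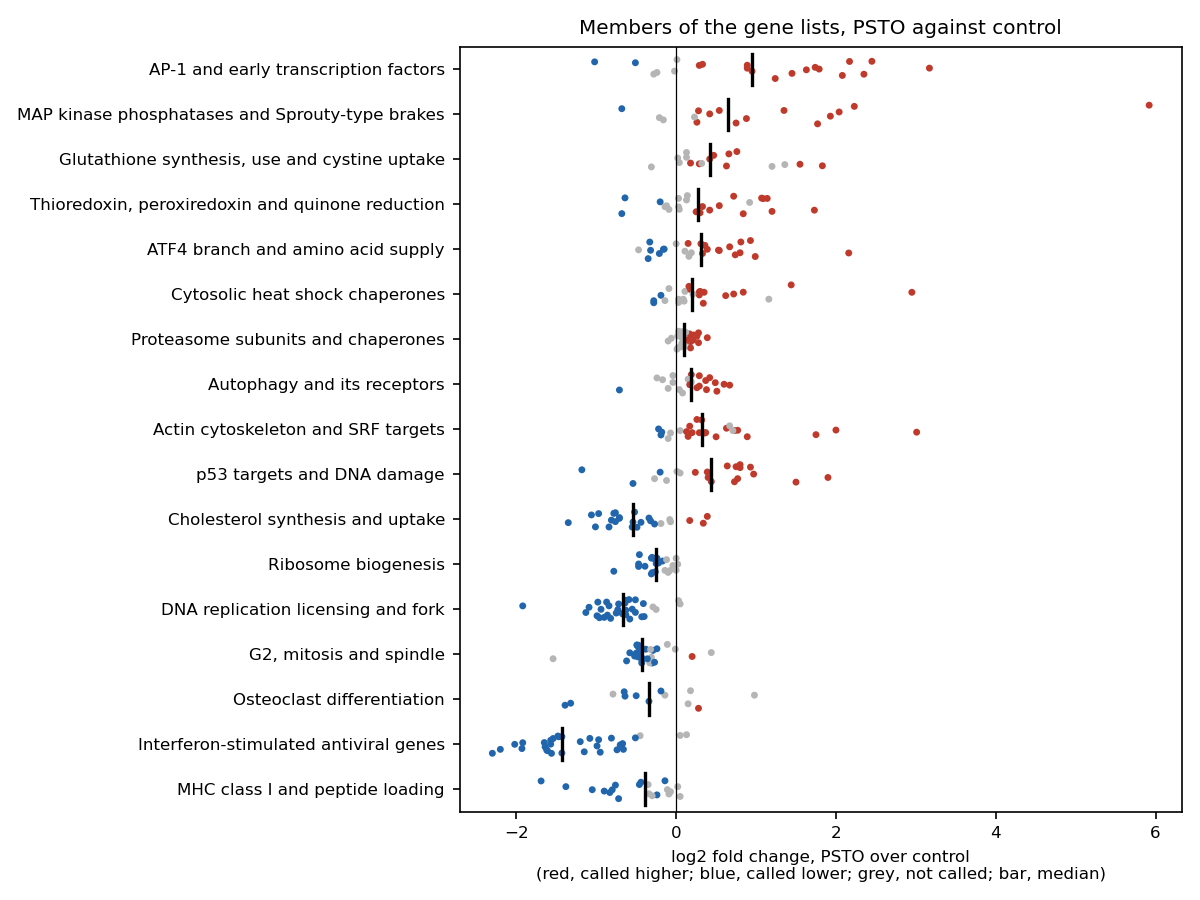
Each point is a tested member of a gene list (rows), placed by its log2 fold change of PSTO over control (horizontal). Red points were called higher, blue lower and grey not called, and the black bar is the median of the list. Medians run from 0.95 for early transcription factors to -1.43 for interferon-stimulated genes.

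Enzymes of cholesterol synthesis fell as a group. Of 25 genes tested, 19 were called lower and 3 higher, with a median of -0.54. Acat2, at the first step of the pathway, had 10.9, 12 and 11.6 CPM in PSTO cells, against 27.7, 32.1 and 28.0 CPM in control cells. Lss, which closes the sterol ring system, had 33.5, 35.6 and 38.5 CPM in PSTO cells, against 76.4, 68.5 and 71.8 CPM in control cells. Mvd, which makes isopentenyl diphosphate, had 27.1, 30.7 and 25.5 CPM in PSTO cells, against 58.3, 50.2 and 54.0 CPM in control cells. PSTO values were less than all control values by a wide margin in these genes. Among the members called higher, Insig1, which retains the SREBP complex in the reticulum, had 63.3, 63.7 and 60.7 CPM in PSTO cells, against 51.4, 47.7 and 48.9 CPM in control cells.

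Of 16 genes of fatty acid synthesis and desaturation, 9 were lower and 2 higher. The count of 2 higher was 1 without control 1, control 2, PSTO 2 or PSTO 3. Scd1, the delta-9 desaturase, had 15.1, 17.8 and 16.9 CPM in PSTO cells, against 35.9, 36.8 and 34.4 CPM in control cells. Fads2 fell by 0.68 on the log2 scale, and Acsl4, which loads arachidonic acid onto coenzyme A, rose by 0.68. The cholesterol exporters moved apart: Abca1 had 160, 128 and 127 CPM in PSTO cells, against 36.2, 41.0 and 33.2 CPM in control cells. Abcg1 had 17.1, 19.1 and 19.3 CPM in PSTO cells, against 34.5, 34.9 and 31.9 CPM in control cells. Both are known targets of the LXR receptors, and their log2 fold changes were 1.91 ± 0.1 for Abca1 and -0.87 ± 0.13 for Abcg1. Of 24 glycolysis and hypoxia genes, 8 were higher and 9 lower, with the glucose transporter gene Slc2a1 at 277, 286 and 281 CPM in PSTO cells, against 166, 154 and 164 CPM in control cells. Hexokinase 2, Hk2, had 41.0, 52.2 and 48.6 CPM in PSTO cells, against 89.1, 86.0 and 81.9 CPM in control cells. Nuclear genes of the respiratory chain were largely without a call, with 2 of 29 higher and 2 lower and a median of 0.01, and 5 were called lower without control 2.

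Genes of DNA replication were lower almost throughout, with 30 of 34 tested members called lower and 0 higher, and a median of -0.67. Between 28 and 30 were called lower with any 1 library left out. Mcm6, a subunit of the replicative helicase, had 80.2, 89.3 and 87.7 CPM in PSTO cells, against 187, 188 and 187 CPM in control cells. Mcm3, of the same hexamer, had 65.1, 70.7 and 73.3 CPM in PSTO cells, against 139, 129 and 139 CPM in control cells. Cdt1, which loads that helicase at origins, had 31.7, 32.3 and 37.3 CPM in PSTO cells, against 64.3, 59.6 and 59.3 CPM in control cells. These members lay at about the same ratio, with log2 fold changes of -1.13, -0.96 and -0.86, and no library broke rank. Ung, which removes uracil from DNA, fell the most, with 2.89, 6.62 and 6.35 CPM in PSTO cells, against 21, 19.4 and 19.8 CPM in control cells. Pcna, the sliding clamp, fell by 0.41 on the log2 scale.

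Ccne1, a cyclin of the G1 to S transition, had 5.93, 5.42 and 4.64 CPM in PSTO cells, against 14.4, 15 and 12.6 CPM in control cells. Ccnd1, the D-type cyclin that responds to growth factors, had 115, 126 and 132 CPM in PSTO cells, against 215, 201 and 219 CPM in control cells. Cdkn1a, the p21 inhibitor of cyclin-dependent kinases, had 222, 279 and 269 CPM in PSTO cells, against 147, 147 and 158 CPM in control cells. The cyclins were thus lower and the inhibitor higher in every PSTO library, and Cdkn1b (p27) rose by 0.58. In the list of E2F factors, G1 cyclins and inhibitors, 3 of 20 were higher (15%, against 14.8% of all genes) and 11 lower (55%, against 15.8%). The third rise was that of Ccnd2, a D-type cyclin with 0.898, 0.64 and 0.709 CPM in PSTO cells, against 0.125, 0.479 and 0.298 CPM in control cells, whose call was lost without control 1, control 3 or PSTO 1. Of 30 mitosis genes, 21 were lower and 1 higher (median -0.43), and the single rise, of Cenpa at 0.2, was lost with any 1 library left out. The falls included Ccnb1 at -0.58, Top2a at -0.46 and Mki67 at -0.47. Ribosome biogenesis genes showed 16 of 24 lower and 0 higher (median -0.25). Dkc1, which modifies ribosomal RNA, led them with 104, 107 and 107 CPM in PSTO cells, against 180, 171 and 196 CPM in control cells.

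Of 21 genes known as p53 targets or damage responders, 14 were called higher and 3 lower (median 0.44). Btg2, which slows proliferation, had 51.4, 43.3 and 41.9 CPM in PSTO cells, against 10.3, 15.1 and 11.3 CPM in control cells. Pmaip1, the proapoptotic NOXA, rose by 1.5 and Trp53inp1 by 0.97. Trp53 itself was slightly lower, with 134, 135 and 142 CPM in PSTO cells, against 168, 149 and 156 CPM in control cells (-0.2 ± 0.06, edgeR adjusted p = 0.00843). Several of these genes, such as Sesn2 and Cdkn1a, are also members of other lists. In the BCL2 and caspase list 5 of 23 were higher and 5 lower (21.7% each, against 14.8% and 15.8% of all genes). Only 3 were higher without control 1, PSTO 1, PSTO 2 or PSTO 3. Bcl2l11, the proapoptotic BIM, had 126, 131 and 138 CPM in PSTO cells, against 64.0, 57.2 and 56.7 CPM in control cells. Bid, which links death receptors to mitochondria, fell by 0.69 on the log2 scale.

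Interferon-stimulated antiviral genes had the lowest median of the lists described, with 29 of 32 tested members called lower, 0 higher and a median of -1.43. At least a 2-fold fall was called for 20 of them, and 27 to 29 were called lower with 1 library left out. Ifit1, which binds foreign RNA caps, had 1.21, 1.92 and 2.13 CPM in PSTO cells, against 4.03, 10.2 and 10.5 CPM in control cells. Rsad2, the antiviral viperin, had 6.52, 4.48 and 6.24 CPM in PSTO cells, against 12.7, 18.3 and 20.1 CPM in control cells. Ifi44 had 14.1, 12.2 and 15.6 CPM in PSTO cells, against 30.3, 47.5 and 50.2 CPM in control cells. No value overlapped between groups, and control 1 was the lowest control library in each of the 3. Summed over the list, the level was 463, 442 and 495 CPM in PSTO 1 to 3, against 678, 920 and 872 CPM in control 1 to 3. Control 1 was the control library nearest to the PSTO libraries in this sum. Usp18, which limits signalling from the interferon receptor, had 5.62, 5.19 and 7.73 CPM in PSTO cells, against 17.0, 25.7 and 28.4 CPM in control cells. Bst2, which tethers virions, was not called at 0.13 ± 0.09 (edgeR adjusted p = 0.285).

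The list of factors of interferon signalling was less even, with 4 of 23 called higher and 7 lower. Irf9, the DNA-binding part of the ISGF3 complex, had 22.2, 23.8 and 23.1 CPM in PSTO cells, against 38.0, 49.3 and 44.4 CPM in control cells. Irf7 was not called at -0.21 ± 0.09 (edgeR adjusted p = 0.106), although it was called with DESeq2 and without the low-count filter. Among interferon-inducible GTPases 5 of 15 were called lower and 0 higher, and most of the list was near the detection limit, with summed levels of 17.4 to 21 CPM in PSTO cells and 28 to 53.2 CPM in control cells. Irgm1, which acts against intracellular bacteria, had 6.28, 4.78 and 5.53 CPM in PSTO cells, against 9.5, 14 and 17.3 CPM in control cells. Of 20 MHC class I genes, 12 were lower and 0 higher (median -0.4). Psmb9, a subunit of the immunoproteasome, had 5.04, 4.44 and 4.61 CPM in PSTO cells, against 12.7, 9.65 and 14.1 CPM in control cells. Tap1, the peptide transporter, had 12.6, 13.3 and 14.4 CPM in PSTO cells, against 23.9, 27.3 and 24.1 CPM in control cells. Members of the H2-Q and H2-T families resemble each other closely, so their separate values (H2-T24 at -1.69, H2-Q4 at -0.83) are uncertain.

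Receptors of innate sensing moved gene by gene. Cd14, the coreceptor for LPS, had 3667, 3393 and 3356 CPM in PSTO cells, against 1178, 1099 and 1191 CPM in control cells. Tlr4, the signalling receptor, had 150, 140 and 131 CPM in PSTO cells, against 138, 147 and 143 CPM in control cells and was not called. Tlr13, which senses bacterial ribosomal RNA, had 78.4, 93.9 and 89.0 CPM in PSTO cells, against 165, 161 and 158 CPM in control cells. Cd14 was thus higher in all PSTO libraries while the groups overlapped for Tlr4. Over the 22 genes of the list 6 were higher and 6 lower (27.3% each, against 14.8% and 15.8% of all genes). Slc15a3, a lysosomal transporter of bacterial peptides, is on no list but had 230, 219 and 210 CPM in PSTO cells, against 59.7, 55.3 and 60.8 CPM in control cells. In the list of NF-kB factors and feedback genes 6 of 21 were higher (28.6%) and 7 lower (33.3%), with a median of 0. Rela rose by 0.66, while Tnfaip3 (-0.82), which encodes the inhibitor A20, and Relb (-0.76) fell.

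Of 29 inflammatory cytokine and chemokine genes tested, 6 were called higher (20.7%, against 14.8% of all genes) and 2 lower (6.9%, against 15.8%). The other 21 were not called, and 1 was lower without control 1, control 3 or PSTO 1. Cxcl2, a neutrophil attractant, had 73.3, 64.1 and 57.6 CPM in PSTO cells, against 16.6, 11.7 and 11.8 CPM in control cells. Il1rn, the natural antagonist of interleukin 1, had 164, 160 and 144 CPM in PSTO cells, against 89.6, 101 and 92.2 CPM in control cells. Tnf had 24.9, 29.0 and 33.8 CPM in PSTO cells, against 29.7, 33.7 and 33.0 CPM in control cells, and it was not called (-0.13 ± 0.08, edgeR adjusted p = 0.256) except without PSTO replicate 3, where it was lower at -0.27. Cxcl10, an interferon-inducible chemokine, was lower, with 0.898, 0.113 and 0.709 CPM in PSTO cells, against 1.34, 2.15 and 2.51 CPM in control cells. In the eicosanoid list 4 of 17 were higher (23.5%) and 6 lower (35.3%). The inducible enzymes rose, Ptgs2 by 1.44 and Ptges by 1.31, while the constitutive Ptgs1 fell, with 8.74, 8.73 and 8.37 CPM in PSTO cells, against 16.1, 16.2 and 15.6 CPM in control cells.

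Surface molecules for T cell contact were called in both directions, with 6 of 14 co-stimulatory and checkpoint ligands higher and 5 lower, or 3 lower without control 1. Cd83, a marker of activated antigen-presenting cells, had 94.2, 85.0 and 78.1 CPM in PSTO cells, against 39.3, 34.8 and 41.2 CPM in control cells. Cd86 rose by 0.77 and Cd80 by 2.17. Sirpa, the receptor of the CD47 signal that restrains phagocytosis, had 201, 224 and 223 CPM in PSTO cells, against 402, 401 and 398 CPM in control cells. All 3 chains of complement C1q fell, with log2 fold changes of -1.7 for C1qa, -1.26 for C1qb and -1.3 for C1qc. C1qa had 3.04, 1.99 and 3.94 CPM in PSTO cells, against 10.5, 8.38 and 10.2 CPM in control cells. Cd93, a receptor once linked to C1q, rose, with 18.1, 19.7 and 14.9 CPM in PSTO cells, against 3.5, 4.91 and 4.17 CPM in control cells. Itga4, the alpha 4 integrin, had 345, 317 and 351 CPM in PSTO cells, against 862, 935 and 922 CPM in control cells, and Itgb5 (-0.83) and Icam1 (-0.95) fell as well. These falls do not describe the whole list of integrin and adhesion genes. Of its 18 tested members, 7 were called higher and 5 lower, with a median of 0.09. Among 19 Fc and complement receptor genes, 7 were higher and 7 lower, and the count of 7 higher was 4 without PSTO 1.

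Markers of the macrophage lineage were somewhat lower in sum and moved in both directions gene by gene. The list summed to 17731, 17593 and 17391 CPM in PSTO 1 to 3, against 19051, 18949 and 20019 CPM in control 1 to 3, a ratio of 0.909. Of 26 members, 6 were called higher (23.1%) and 10 lower (38.5%, against 15.8% of all genes). Adgre1, which encodes F4/80, had 69.1, 70.9 and 76.7 CPM in PSTO cells, against 132, 132 and 129 CPM in control cells. Csf1r, the receptor for the growth factor M-CSF, had 2304, 2303 and 2248 CPM in PSTO cells, against 2637, 2542 and 2637 CPM in control cells. Cd68 was not called, and Cebpb, a factor of activated macrophages, rose by 0.67. The fractalkine receptor gene Cx3cr1 fell by 0.6 and the scavenger receptor gene Msr1 by 0.53 on the log2 scale. Osteoclast genes, which RAW264.7 cells can express after RANK stimulation, were lower in 7 of 13 cases and higher in 1. Mitf, a factor of osteoclast differentiation, had 38.5, 45.8 and 44.1 CPM in PSTO cells, against 110, 109 and 118 CPM in control cells. Ctsk, the collagen-degrading cathepsin, had 108, 107 and 117 CPM in PSTO cells, against 163, 149 and 158 CPM in control cells. Tnfrsf11a, the RANK receptor itself, fell by 1.32 on the log2 scale.

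Actin genes and targets of the serum response factor rose, with 17 of 25 called higher and 3 lower (median 0.32). The count was 12 to 15 with 1 library left out. The 3 lower, named after their values were seen, were Vim (-0.19), Lmna (-0.22) and Tuba1c (-0.18), and the lower count was 1 without control 1, control 3, PSTO 2 or PSTO 3. Actg1, a cytoplasmic actin, had 3135, 2774 and 2775 CPM in PSTO cells, against 1624, 1497 and 1554 CPM in control cells. Zyx, found at focal adhesions, had 188, 168 and 157 CPM in PSTO cells, against 51.3, 49.6 and 51.9 CPM in control cells. Tpm4, a tropomyosin, had 754, 723 and 713 CPM in PSTO cells, against 424, 423 and 440 CPM in control cells. PSTO 1 was the highest library for each of these 3. Actb rose by 0.63 and Myh9, a nonmuscle myosin, by 0.73. Srf, the gene of serum response factor, had 140, 127 and 122 CPM in PSTO cells, against 69.7, 68.7 and 72.1 CPM in control cells.

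The same agent was also given before LPS, in 6 libraries that share none with the comparison above. PSTO+LPS against LPS gave 5557 called genes (38.3%), of which 2405 were higher (16.6%) and 3152 lower (21.7%). Genes called higher in both comparisons numbered 1173, which is 54.6% of the PSTO rises without LPS and 48.8% of those with LPS. Genes called lower in both numbered 1373, or 59.9% and 43.6%. Opposite calls were made for 178 genes that rose without LPS and fell with it, and for 125 that fell without LPS and rose with it. The difference between the PSTO effects with and without LPS was tested as an interaction and called for 2476 genes (17.1%), of which 1010 were higher with LPS (6.96%) and 1466 lower (10.1%). They included all 178 and 125 genes with opposite calls. Opposite calls all but fix an interaction call in advance, so nothing is read from this. Of 1591 genes called only in unstimulated cells, 575 had a called interaction, so for the others the data do not show that the effect differed.

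Replication genes differed between the settings in this test. Their median was -0.67 without LPS and 0.1 with LPS, where 9 were higher and 7 lower, and the interaction was called for 21 of 34. Mcm6 had a log2 fold change of -1.13 without LPS and 0.12 with LPS, an interaction of 1.25 (edgeR adjusted p = 6.29e-08). Interferon-stimulated genes had a median of -1.43 without LPS and -0.34 with LPS, where 20 were lower and 1 higher, and the interaction was called for 24 of 32. Actin genes had a median of 0.32 without LPS and 0.09 with LPS, with 18 of 25 interactions called. Actb was called in opposite directions, at 0.63 without LPS and -0.23 with LPS. Mitosis genes were lower in both settings, with medians of -0.43 and -0.71. Jun was nearly the same in both, at 2.45 and 2.44, with an interaction of -0.01 (edgeR adjusted p = 0.987). Dusp1 rose by 1.77 without LPS and was at -0.04 with LPS, an interaction of -1.81 (edgeR adjusted p = 2.57e-10). Klf7 was called in opposite directions, at 1.5 and -0.87. Among antioxidant genes the effect on Srxn1 was 1.14 without LPS and 1.75 with LPS (interaction 0.6, edgeR adjusted p = 0.0013), and that on Slc7a11 was 1.55 without LPS and 0.6 with LPS (interaction -0.95, edgeR adjusted p = 5.71e-06).

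**Figure D5:**
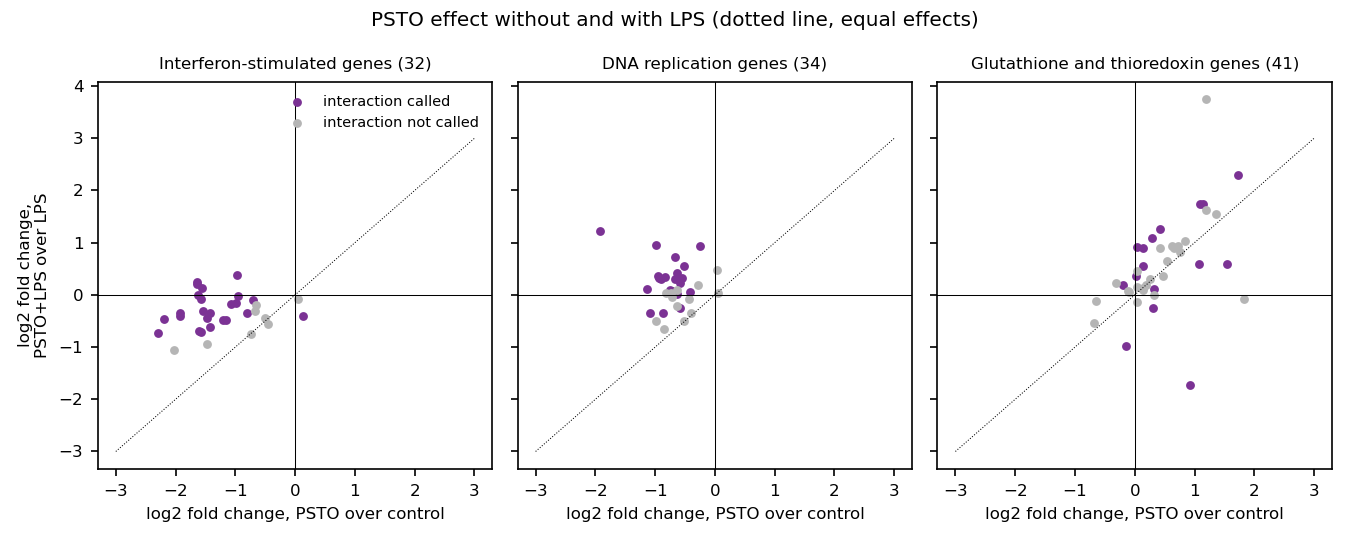
Each point is a tested gene of the list named above the panel, placed by its log2 fold change of PSTO over control (horizontal) and of PSTO+LPS over LPS (vertical). Purple points have a called interaction, grey points do not, and the dotted line marks equal effects. Of the 34 replication genes, 32 lie left of 0 on the horizontal axis, and they lie on both sides of 0 on the vertical one, with medians of -0.67 and 0.1, while most antioxidant genes lie above 0 on both.

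Some calls rest on very few reads. Of the 149 genes called higher at a mean under 1 CPM, 23 had 0 reads in the 3 control libraries. In 36 of them the PSTO+LPS level was at least 10-fold above the PSTO level, and in 7 at least 100-fold. Of the 48 genes called lower at such levels, 27 were at least 10-fold and 13 at least 100-fold above the PSTO level in PSTO+LPS cells. These genes were chosen for a low level without LPS, and the falls also for a low PSTO level, which favours large ratios. The same shares over all 2799 tested genes under 1 CPM were not taken, so nothing is read from these counts. Cxcl3 had 0.117, 0.188 and 0.213 CPM in PSTO cells and 0 reads in control cells. Il1b had 1.01, 0.828 and 0.993 CPM in PSTO cells, against 0.156, 0 and 0 CPM in control cells. Serpinb2, an inhibitor of plasminogen activators, had 0.625, 0.226 and 0.355 CPM in PSTO cells, against 0.0312, 0 and 0 CPM in control cells. The part of reads from LPS-treated libraries in such calls was not tested.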

How the data were processed

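RNA of RAW264.7 cells was sequenced in 12 libraries, 3 each of PSTO, PSTO+LPS, LPS and control. The deposited table holds whole-number counts per gene for 55137 entries, with no normalization by the authors. Per the submitters' processing notes, HISAT, DESeq2 and the build mm39 were involved, with no version. How reads were counted, on which annotation and with what strand setting is not given in the sources used here, so reads of overlapping and antisense genes cannot be told apart.

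Tests used edgeR 4.0.16 and limma 3.58.1 under R 4.3.3, and DESeq2 1.42.0 served as an alternative. The 14505 genes passing filterByExpr (40632 were set aside) were scaled by TMM and fitted by quasi-likelihood with 1 mean per group over all 12 libraries, without covariates. A gene was called at a Benjamini-Hochberg adjusted p under 0.05 over all tested genes, and SE was taken as the size of the log2 fold change over the root of its F statistic. Totals ran from 20652947 to 26575919 reads in the 6 libraries of PSTO and control, and no pair of replicates agreed within sampling noise. A common biological coefficient of variation of 0.0959 was estimated. The fits were tested on simulated data.

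Genes were named by rule: the 15 largest rises and 15 largest falls with at least 5 CPM and no overlap of libraries, the 10 smallest p, and up to 5 called members of each list at 1 CPM or more. Others were added after their values were seen. The comparison, members and lists were chosen with earlier results of these data known. GENCODE M21 and RefSeq tables of another build, GRCm38, served only for gene types, older symbols and promoter sequence. Some items are not reported here. Alternatives were other scaling factors, no filter, a replicate block, only the 6 libraries, DESeq2 and leaving out each library.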

Additional observations from a re-analysis of the deposited data

Results flagged for a closer look

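Among the 30 largest rises and falls, 15 had a PSTO effect that differed between cells with and without LPS by the interaction test (edgeR adjusted p under 0.05). These genes were chosen for a large PSTO effect without LPS, which the interaction subtracts, so the choice itself favours effects that are smaller with LPS, and nothing is read from the count. Values are the log2 fold change of PSTO+LPS over LPS minus that of PSTO over control. Rises that were smaller with LPS were those of Dusp8 (-2.18), Nr4a3 (-1.73), Phlda1 (-1.37), Arid5a (-0.99), Map1b (-0.75), Procr (-0.61) and Ier3 (-0.55). The rise of Osm was larger with LPS (0.9).

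Falls that were smaller with LPS were those of Ifit1 (1.73), Usp18 (1.53), Plau (1.39), Ifi44l (1.12) and Rasgrp3 (0.78). Tgfbi (1.81) fell without LPS and was at -0.07 with LPS, where it was not called. Ung (3.14) fell by 1.92 on the log2 scale without LPS and was at 1.22 with LPS, also not called.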

How the results depend on the processing

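Counts of calls over all genes kept within 1.5 times under every alternative. PSTO vs control gave 4447 calls with relative log expression factors, 4447 with upper-quartile factors, 4392 without a filter, 4829 in the 6 libraries alone and 4689 with DESeq2, against 4440. Leaving out 1 library gave 3725 to 3926, and no shared call changed sign in any of these. With the replicate number as a block the count was 4294. Same-numbered libraries did not deviate together (correlations of -0.01, 0.03 and 0.02 for PSTO and control, and 0.05, 0.01 and -0.02 with LPS). These values cannot tell whether same-numbered libraries share a culture or a day, which the labels do not give.

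Over 309 named genes, 3574 values under the alternatives kept the side of the threshold, 121 lost the call, 10 gained one and 0 changed sign while called. List counts stayed within 1.5 times in 1084 cases and moved further in 68; the cause was not tested. PSTO+LPS vs LPS gave 5366 calls and the interaction 2345 with the replicate block, and 4790 to 5143 and 2079 to 2408 with 1 library left out. Depth limits calls at low level: 7.04% of genes under 1 CPM were called, against 55.3% at 100 CPM or more.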

Other observations

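Gene families read by their names, chosen after the values were seen, gave the counts below. Among all genes, 14.8% were called higher and 15.8% lower. Mitochondrial ribosomal proteins (Mrpl and Mrps, 76 tested) had 0 genes called higher and 18 lower in edgeR's test, with a median log2 fold change of -0.15. Cytosolic ribosomal proteins (Rpl and Rps, 78 tested) had 7 higher and 2 lower. Zinc finger genes named Zfp (310 tested) had 49 higher, close to the share of all genes, and 15 lower, below that share. Kinesins (Kif, 31 tested) had 3 higher and 11 lower. Genes named Arhgap and Arhgef (42 tested) had 7 higher, close to the share of all genes, and 13 lower, above that share.

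Several circadian genes were called. Nfil3, a repressor that responds to cytokines, had 24.9, 25.8 and 23.2 CPM in PSTO cells, against 7.84, 7.62 and 8.43 CPM in control cells. Per1 rose by 0.99 and Nr1d1, which encodes REV-ERB alpha, by 0.98, and Bhlhe41 fell, with 16.9, 19.9 and 24.3 CPM in PSTO cells, against 47.8, 51.5 and 43.0 CPM in control cells. Over the clock list 5 of 15 were higher (33.3%, against 14.8% of all genes) and 4 lower (26.7%, against 15.8%). Among long noncoding RNAs of the lincRNA type, 12.5% of 353 were called, 31 higher and 13 lower, against 35.8% of 11525 protein-coding genes. The share called rises with the level of a gene, and the part of level in this difference was not tested. Ighm, an immunoglobulin heavy chain transcript in a macrophage line, had 11.2, 12.9 and 15.8 CPM in PSTO cells, against 54.3, 43.8 and 58.7 CPM in control cells. The list of 8 B cell markers summed to 0.352 to 0.377 CPM in PSTO cells and 0 to 0.0933 CPM in control cells, with 3 of the 8 at 0, and its part in this was not tested.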
